A study of Gallus gallus with 8 samples.

Results

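The genes that carry a cell through G1 were measured in DT40 cells, a chicken B cell lymphoma line, with and without BCL6. The 9 genes are 4 cyclins (CCND1, CCND2, CCND3 and CCNE1), 2 cyclin-dependent kinases (CDK6 and CDK2) and 3 inhibitors of such kinases (CDKN1A, CDKN1B and CDKN2B). They were found by matching the RefSeq accession printed for each probe to these chicken gene symbols. All 9 had probes, 15 in number among the 43603 different probes on the array, and all 15 probes passed the filter on dim signals. Levels were read on 8 Agilent one-colour arrays in 3 groups. The 3 DKO arrays are labelled as deficient in both IRF4 and BCL6, the 2 BCL6KO arrays as deficient in BCL6, and the 3 WT arrays as wild type. The labels give no treatment, and the number of knockout clones is not given in the sources used here. IRF4 is a transcription factor needed for plasma cell formation, and BCL6 represses transcription in B cells of the germinal centre.

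D-type cyclins are induced by growth signals and activate CDK4 and CDK6, which begin to phosphorylate the retinoblastoma protein RB. Cyclin E with CDK2 completes this step, so that E2F transcription factors are released and genes of S phase are switched on. The INK4 inhibitors, among them the product of CDKN2B, bind CDK4 and CDK6 alone. The CIP/KIP inhibitors encoded by CDKN1A and CDKN1B bind complexes of cyclins with CDK2 and also associate with cyclin D complexes. In mammalian B cells CCND3 is the D-type cyclin known for germinal centre proliferation, and CCND2 is known as a gene induced through the B cell receptor. In mammals BCL6 is known to repress CCND2, CDKN1A and CDKN1B.

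Levels are given on a log2 scale on which the 75th percentile of each array is 0, and are called log2 levels. A spot counts as detected where the scanner software flagged it as well above background. Between 65.8% and 67.8% of spots were so flagged on the DKO arrays, 75.1% and 79.2% on the BCL6KO arrays and 62.4% to 68.2% on the WT arrays, and the number of arrays limits the precision. IRF4 averaged -1.72 in DKO, 5.09 in BCL6KO and 3.01 in WT. BCL6 averaged 0.80 in DKO, -4.73 in BCL6KO and 2.55 in WT, so that the BCL6KO level was 0.642% of WT. Of 4 BCL6 probes, 1 fell short of that flag in both deficient groups, and the BCL6 signal of the other 3 was 26.9% to 29.7% of WT on the DKO arrays. Thus the BCL6 signal goes partly against the DKO label, and these arrays are called DKO-labelled below. In the value table that the authors deposited, the columns labelled WT followed the DKO-labelled scanner files (Pearson's r of 0.999 across probes), so only the scanner files were used here, except where stated.

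Of 14 B cell markers, 9 were matched, and all 9 were called lower in BCL6KO than in WT. Their summed level, on the log2 scale, was 6.26 to 6.46 on the DKO-labelled arrays, 0.61 and 0.73 on the BCL6KO arrays and 6.84 to 6.97 on the WT arrays. PAX5, which defines the B lineage, was not well above background on either BCL6KO array. The summed level of fibroblast markers was 1.23 to 1.46 in DKO-labelled, -1.70 and -1.22 in BCL6KO and -1.34 to -1.25 in WT arrays. Of its 9 matched markers, 2, 8 and 2 were well above background on every array of the group. The BCL6KO scans gave this flag to dimmer spots, down to log2 levels of -7.97 and -7.38. The dimmest flagged spots of the WT scans lay at -6.87 to -6.05, and those of the DKO-labelled scans at -6.60 to -6.32. DCN, for example, was flagged in BCL6KO at -7.14 and -7.10, yet in no WT scan, where its highest level was -6.47. POSTN, FN1, THY1 and COL6A1 were also flagged in both BCL6KO scans and in no WT scan, at higher levels than DCN. POSTN had -3.76 and -2.60 in BCL6KO, above the dimmest flagged spot of every WT scan, and at most -7.51 in WT. In BCL6KO FN1 had -6.15 and -5.49, THY1 -6.31 and -5.86, and COL6A1 -6.33 and -6.11. How much of the difference between these counts comes from the flag was not tested. The sums were 3.67 to 4.02, 1.22 and 1.83, and 6.09 to 6.14 for T cell markers in DKO-labelled, BCL6KO and WT arrays, 3.94 to 4.37, 0.49 and 1.01, and 6.10 to 6.28 for macrophage markers, and 0.73 to 0.81, -0.94 and -0.41, and -1.57 to -1.44 for erythroid markers. A single gene sets much of some sums. CD74 among the macrophage markers, which B cells express too, had 3.75 to 4.23 in DKO-labelled, -0.0067 and 0.75 in BCL6KO and 6.06 to 6.25 in WT arrays, and CD3D among the T cell markers had 3.06 to 3.43, 0.50 and 1.51, and 5.98 to 6.04. COL1A2 among the fibroblast markers had 1.15 to 1.40, -3.29 and -3.13, and -1.74 to -1.62 in the same groups. HBBA among the erythroid markers had 0.06 to 0.13, -5.98 and -5.17, and -5.53 to -5.24. In BCL6KO and WT arrays TFRC lay above it, at -1.65 and -0.97, and at -2.29 to -2.10. Of the 6 erythroid markers tested, 3 were called higher and 0 lower in DKO-labelled against WT, where 28.6% of all genes were called higher. These were HBBA, HBE and HBBR, with log2 changes of 5.48, 4.22 and 3.27. Of the 8 fibroblast markers tested, 5 were called higher and 1 lower in BCL6KO against WT, and 4 and 0 in DKO-labelled against WT. Over all genes tested, 42.2% and 28.6% were called higher in these comparisons. CD4, IL7R, CD14 and the embryonic globin gene HBZ were not well above background on any array. The BCL6KO arrays were also scanned in a session of their own with a later software version, and session and genotype cannot be told apart. The part of these marker differences in the results below was not tested. In bulk RNA, fewer cells of a type and less RNA per cell cannot be told apart.

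Each comparison asks how the G1 genes differed between a pair of groups. All tests come from a limma model over the 24147 gene entries that passed the filter, with Benjamini-Hochberg adjustment over all of them, and a gene is called where its adjusted p is under 0.05. Nothing in the labels says that the BCL6KO or DKO arrays came from separate cultures, so these p-values measure only the spread between the arrays at hand. In BCL6KO against WT, 8 of the 9 genes were called, 4 higher and 4 lower, where 69.6% of all genes tested were called, 42.2% as higher and 27.5% as lower. In DKO-labelled against WT, 7 were called, 3 higher and 4 lower, where 52.3% of all genes were called, 28.6% as higher and 23.7% as lower. In DKO-labelled against BCL6KO, 8 were called, 5 higher and 3 lower, where 68.5% of all genes were called, 28.8% as higher and 39.7% as lower. The median log2 change of the 9 genes was -0.03, 0.18 and 0.60 in these comparisons, against 0.25, 0.07 and -0.18 over all genes tested. With normexp background correction, for which BCL6KO array 1 held 18 aberrant background readings, 5, 3 and 6 members were called. The same setting called 6751, 2798 and 5861 of the 24147 genes. With those readings replaced 8, 7 and 9 members were called, beside 18802, 13614 and 17914 genes. Before that repair CDK6, CCND3, CDKN1A and CDKN2B were not called in DKO-labelled against WT, nor CDK6 and CCND3 in DKO-labelled against BCL6KO, nor CCND1, CCND3 and CDKN2B in BCL6KO against WT. Most of the genes tested were called, so the direction and size of each gene are described rather than the count. All 3 comparisons draw on the same 8 arrays, and each pair of them shares a group.

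CCND1 and CCND2, which encode cyclins D1 and D2, stood in the same order in the 3 groups, highest in the DKO-labelled arrays, intermediate in BCL6KO and lowest in WT. CCND1 had log2 levels of 2.63, 2.59 and 2.48 on the DKO-labelled arrays and 1.94 and 1.99 on the BCL6KO arrays, against 1.32, 1.28 and 1.39 on the WT arrays. The 3 groups did not overlap. CCND1 was 2.36-fold higher in DKO-labelled than in WT arrays (log2 change 1.24 ± 0.07 SE, limma adjusted p = 9.67e-06) and 1.55-fold higher on the BCL6KO than on the WT arrays (0.63 ± 0.08, limma adjusted p = 0.000318). Between DKO-labelled and BCL6KO arrays it differed 1.52-fold (log2 change 0.60 ± 0.08, limma adjusted p = 0.000432). The size of the difference between BCL6KO and WT depends on the scaling between arrays. The signal before scaling was 8401 and 7654 intensity units in BCL6KO, against 7444, 7538 and 7699 in WT, so the groups overlapped, and with each array scaled to its median the log2 change was 0.33 (limma adjusted p = 0.00634). It was not called with plain normexp correction (0.34) or with a minimum fold of 1.5, close to its own 1.55. With the aberrant background readings replaced, the normexp value was 0.66 (limma adjusted p = 5.87e-05). With quantile normalization it was 0.71 (limma adjusted p = 0.000181). The other CCND1 probe gave log2 changes of 1.22, 0.69 and 0.52 in the same comparisons, each called as higher. Before scaling, its signal was 6087 and 5297 intensity units in BCL6KO, just above the 5101 to 5183 in WT.

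CCND2 had the larger changes of this pair. Its log2 levels were 0.68, 0.61 and 0.60 on the DKO-labelled arrays and -0.48 and -0.34 on the BCL6KO arrays, against -1.44, -1.41 and -1.26 on the WT arrays. The groups again did not overlap, and the distance between groups was several times the range within any of them. CCND2 was 4.01-fold higher in DKO-labelled than in WT arrays (log2 change 2.00 ± 0.08, limma adjusted p = 1.87e-06), a difference that 727 of the 19570 genes detected in both groups (3.71%) matched or passed in that direction. It was 1.95-fold higher on the BCL6KO than on the WT arrays (0.97 ± 0.09, limma adjusted p = 7.52e-05) and 2.05-fold higher in DKO-labelled than in BCL6KO arrays (1.04 ± 0.09, limma adjusted p = 5.77e-05). The other CCND2 probe gave 1.82, 1.01 and 0.81 in these comparisons.

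CCND3, which encodes cyclin D3, took a different order, lowest in the DKO-labelled arrays. Its log2 levels were 1.12, 1.21 and 1.26 on the DKO-labelled arrays and 2.63 and 3.24 on the BCL6KO arrays, against 2.28, 2.31 and 2.35 on the WT arrays. The DKO-labelled arrays lay below all others, and the BCL6KO arrays lay above WT but further from each other than the arrays of either other group did. CCND3 was 2.17-fold lower in DKO-labelled than in WT arrays (log2 change -1.12 ± 0.15, limma adjusted p = 0.000793) and 3.34-fold lower in DKO-labelled than in BCL6KO arrays (-1.74 ± 0.17, limma adjusted p = 0.000127). It was 1.54-fold higher on the BCL6KO than on the WT arrays (0.62 ± 0.17, limma adjusted p = 0.0146). That last difference rests on the scaling. The signal before scaling was 13564 and 18217 intensity units in BCL6KO, against 14441, 15444 and 15030 in WT, so the groups overlapped. With each array scaled to its median the log2 change was 0.32 (limma adjusted p = 0.115), and without BCL6KO array 2 it was 0.31 (limma adjusted p = 0.00968). That p rests on 1 BCL6KO array, whose spread is taken from the tighter DKO-labelled and WT arrays. The other CCND3 probe gave -1.16 in DKO-labelled against WT, 0.76 in BCL6KO against WT and -1.92 in DKO-labelled against BCL6KO, each called.

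**Figure D1:**
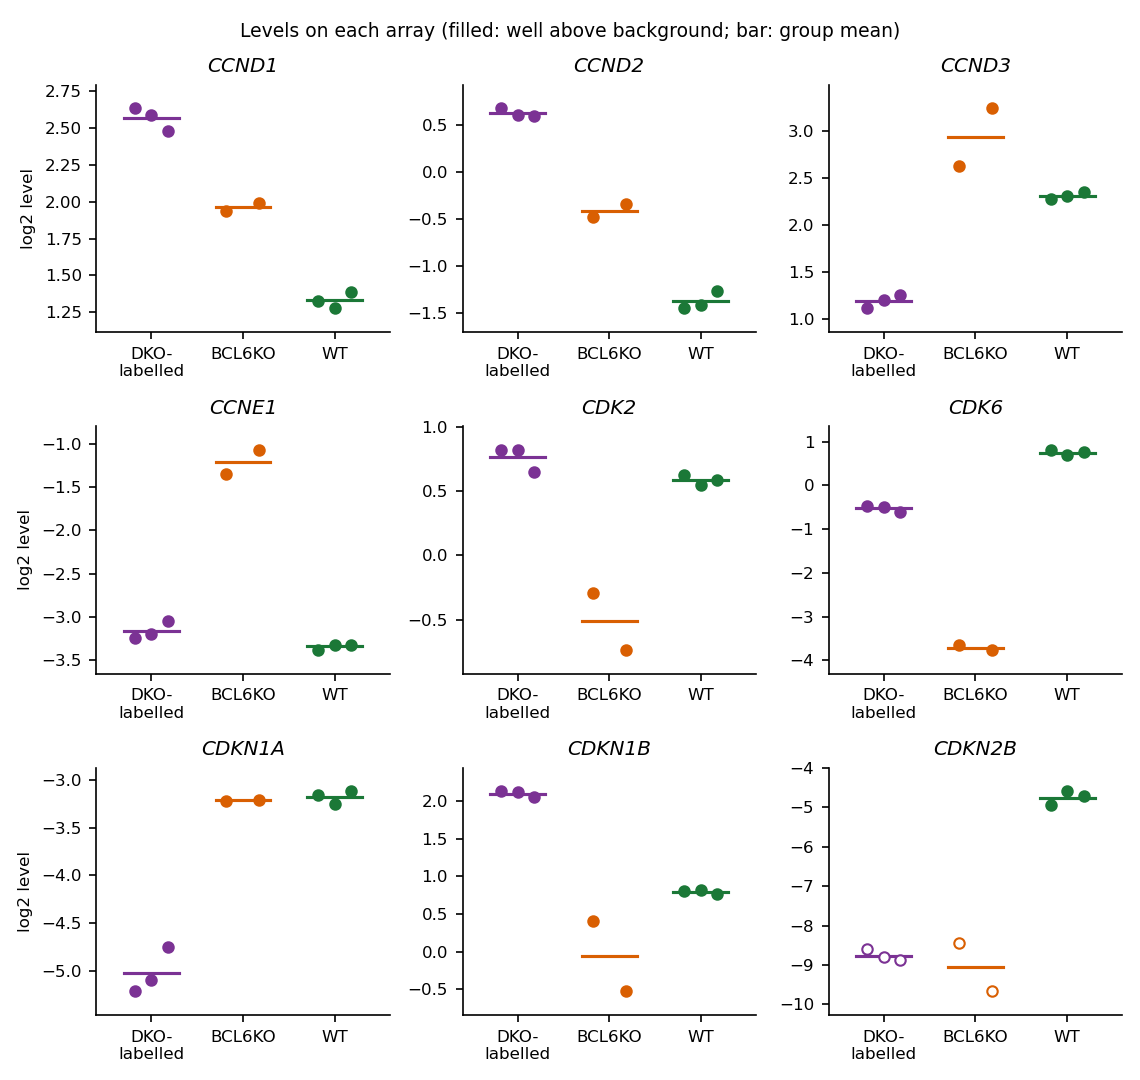
Log2 level (log2 scale, with the 75th percentile of each array at 0) of the tested probe of each gene on each of the 8 arrays. Each dot is an array, filled where the spot was well above background, the bar is the group mean, and each panel has its own axis. CCND1 and CCND2 step down from DKO-labelled to BCL6KO to WT, CDK6 is lowest in BCL6KO, and CDKN2B is open in both deficient groups.

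CCNE1, which encodes cyclin E1, was high in BCL6KO alone. Its log2 levels were -3.25, -3.20 and -3.04 on the DKO-labelled arrays and -1.35 and -1.07 on the BCL6KO arrays, against -3.38, -3.33 and -3.32 on the WT arrays. Both BCL6KO arrays lay well above the other 6 arrays, while the DKO-labelled and WT arrays lay side by side without overlapping. CCNE1 was 4.39-fold higher on the BCL6KO than on the WT arrays (log2 change 2.14 ± 0.11, limma adjusted p = 5.2e-06), and 5.33% of the 20457 genes detected in both groups were higher by at least as much. It was 3.87-fold lower in DKO-labelled than in BCL6KO arrays (-1.95 ± 0.11, limma adjusted p = 8.66e-06). Between DKO-labelled and WT arrays the log2 change was 0.18, with a 95% interval from -0.05 to 0.41, and was not called (limma adjusted p = 0.157).

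CDK6, the kinase partner of the D-type cyclins, had the lowest level in BCL6KO and an intermediate one in the DKO-labelled arrays. Its log2 levels were -0.47, -0.48 and -0.60 on the DKO-labelled arrays and -3.66 and -3.75 on the BCL6KO arrays, against 0.81, 0.69 and 0.76 on the WT arrays. In signal before scaling these were 1868, 1827 and 1729 intensity units in DKO-labelled, 174 and 143 in BCL6KO and 5223, 5015 and 4969 in WT. The 3 groups did not overlap, and every spot was well above background. The BCL6KO level was 4.55% of WT (log2 change -4.46 ± 0.08, limma adjusted p = 7.02e-08), and 245 of 20457 genes detected in both groups (1.20%) were lower by at least as much. CDK6 was 2.41-fold lower in DKO-labelled than in WT arrays (-1.27 ± 0.07, limma adjusted p = 9.4e-06) and 9.10-fold higher in DKO-labelled than in BCL6KO arrays (3.19 ± 0.08, limma adjusted p = 3.07e-07).

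CDK2, the kinase partner of cyclin E, was likewise lowest in BCL6KO but by less. Its log2 levels were 0.82, 0.82 and 0.65 on the DKO-labelled arrays and -0.29 and -0.73 on the BCL6KO arrays, against 0.62, 0.55 and 0.59 on the WT arrays. Both BCL6KO arrays lay below the other 6, and the lowest DKO-labelled array lay just above the highest WT array. CDK2 was 2.14-fold lower on the BCL6KO than on the WT arrays (log2 change -1.10 ± 0.14, limma adjusted p = 0.000391) and 2.42-fold higher in DKO-labelled than in BCL6KO arrays (1.28 ± 0.14, limma adjusted p = 0.000203). Between DKO-labelled and WT arrays the log2 change was 0.18, with a 95% interval from -0.12 to 0.47 (limma adjusted p = 0.275). In BCL6KO, then, CCNE1 was higher and CDK2 lower than in WT, and neither was called between DKO-labelled and WT arrays. CCNE2, the other E-type cyclin gene, was called lower than in WT in BCL6KO (log2 change -1.77) and in the DKO-labelled arrays (-2.20). When arrays were weighted by their spread, both CCNE1 (log2 change 0.17, limma adjusted p = 0.0311) and CDK2 (0.20, limma adjusted p = 0.0287) were called higher in the DKO-labelled arrays.

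Among the inhibitors, CDKN1A was low in the DKO-labelled arrays alone. Its log2 levels were -5.21, -5.10 and -4.75 on the DKO-labelled arrays and -3.22 and -3.21 on the BCL6KO arrays, against -3.16, -3.25 and -3.12 on the WT arrays. The BCL6KO values fell inside the WT range, and the DKO-labelled values lay below all others. CDKN1A was 3.58-fold lower in DKO-labelled than in WT arrays (log2 change -1.84 ± 0.12, limma adjusted p = 2.55e-05), and 3.30% of 19570 genes detected in both groups were lower by at least as much. It was 3.50-fold lower in DKO-labelled than in BCL6KO arrays (-1.81 ± 0.14, limma adjusted p = 4.1e-05). Between BCL6KO and WT the log2 change was -0.03, with a 95% interval from -0.36 to 0.29 (limma adjusted p = 0.834). Over the alternative settings it lay between -0.49 and 1.19, and with cyclic loess scaling, at -0.49, it was called (limma adjusted p = 0.0256). This result, too, depends on the scaling. The signal before scaling was 236 and 208 intensity units in BCL6KO, below the 332, 326 and 339 in WT. With each array scaled to its median the log2 change was -0.34 and was not called (limma adjusted p = 0.069).

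CDKN1B, the other CIP/KIP gene measured, moved in the opposite direction in the DKO-labelled arrays. Its tested probe had log2 levels of 2.13, 2.11 and 2.06 on the DKO-labelled arrays and 0.41 and -0.52 on the BCL6KO arrays, against 0.80, 0.82 and 0.77 on the WT arrays. The DKO-labelled arrays lay above all others, and the BCL6KO arrays lay below WT but far from each other. CDKN1B was 2.46-fold higher in DKO-labelled than in WT arrays (log2 change 1.30 ± 0.22, limma adjusted p = 0.00216) and 4.46-fold higher in DKO-labelled than in BCL6KO arrays (2.16 ± 0.24, limma adjusted p = 0.000254). All 4 of its probes were called higher in both comparisons, with log2 changes of 1.30 to 1.49 and of 1.75 to 2.16. Between BCL6KO and WT the tested probe was 1.81-fold lower (-0.85 ± 0.24, limma adjusted p = 0.0171). The other 3 probes had log2 changes of -0.43, -0.43 and -0.32 that were not called (limma adjusted p = 0.0933, 0.174 and 0.151). On these, BCL6KO array 1 had -0.28, -0.72 and -0.41, in or beside the WT ranges of -0.26 to -0.21, -0.83 to -0.75 and -0.45 to -0.39. Their changes thus came mostly from BCL6KO array 2. For the tested probe, the size of the difference between BCL6KO and WT depended on which BCL6KO array was kept. It was -1.32 without BCL6KO array 1 and -0.39 without BCL6KO array 2 (limma adjusted p = 1.55e-05 and 0.00149). These p-values, too, give the remaining BCL6KO array the spread of the other groups, although the BCL6KO pair had the largest SD for this probe (0.66).

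CDKN2B, the INK4 gene, was well above background on the WT arrays alone. Its signal was 6.65, 5.72 and 5.54 intensity units on the DKO-labelled arrays and 6.26 and 2.38 on the BCL6KO arrays, against 96.2, 128 and 111 on the WT arrays. These correspond to log2 levels of -8.61, -8.80 and -8.89 in DKO-labelled and -8.45 and -9.66 in BCL6KO, against -4.95, -4.60 and -4.73 in WT. None of the 5 arrays of the deficient groups had this spot well above background, so only a bound on the fold can be given. CDKN2B was at least 3.28-fold lower in DKO-labelled than in WT arrays (limma adjusted p = 4.16e-05) and at least 7.56-fold lower on the BCL6KO than on the WT arrays (limma adjusted p = 3.94e-05). Each bound sets the WT mean against the dimmest signal still well above background on the arrays of the other group. The dimmest such log2 level was -6.60 to -6.32 on the DKO-labelled arrays and -7.97 and -7.38 on the BCL6KO arrays, which sets the different bounds. The bounds hold for the processed signal alone. With repaired normexp correction the log2 change was -1.30 in DKO-labelled and -0.89 in BCL6KO arrays (limma adjusted p = 5.67e-05 and 0.000691), each smaller than its bound. Normexp was run with an offset of 50 intensity units added to every signal. At WT signals of 96.2 to 128 units this shrinks the log2 changes, so their size cannot test the bounds. With plain normexp the BCL6KO value turned to 1.14 (limma adjusted p = 0.409). Between DKO-labelled and BCL6KO arrays neither group was measured well enough for a fold (limma adjusted p = 0.459).

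**Figure D2:**
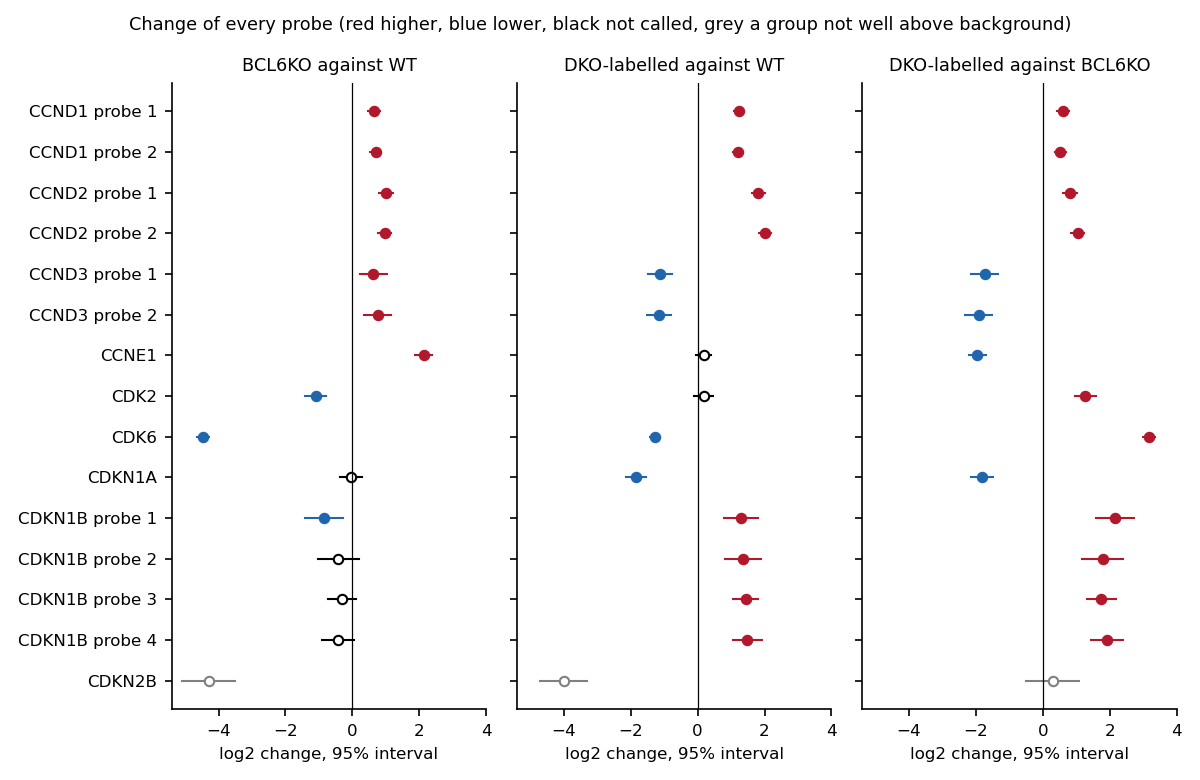
Log2 change of each of the 15 probes in the 3 comparisons, with 95% intervals from limma, dots coloured by direction where the adjusted p over all probes was under 0.05. Probes of CCND1, CCND2 and CCND3 fall together in each panel, and of the 4 CDKN1B probes only 1 is called in BCL6KO against WT. The grey CDKN2B dots are fitted values of a gene with at least 1 group not well above background.

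The 15 probes were also fitted separately among all 34229 probes that passed the filter, of which 70.4%, 53.8% and 68.8% were called in BCL6KO against WT, DKO-labelled against WT and DKO-labelled against BCL6KO. Both probes of CCND1, of CCND2 and of CCND3 were called in the same direction in all 3 comparisons, and the plot of changes by probe shows how close they lie. The spread among the 4 CDKN1B probes was widest where the BCL6KO arrays entered. Groups did not overlap for 8 of the 9 genes in BCL6KO against WT, for all 9 in DKO-labelled against WT and for 8 in DKO-labelled against BCL6KO, where 79.4%, 70.0% and 78.1% of all genes did not overlap.

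Set side by side, the groups held different combinations of the 9 genes. In the DKO-labelled arrays CCND1, CCND2 and CDKN1B were higher than in WT and CCND3, CDK6, CDKN1A and CDKN2B lower. In BCL6KO CCND1, CCND2, CCND3 and CCNE1 were called higher than in WT and CDK6, CDK2, CDKN1B and CDKN2B lower. Of these, the CCND3 difference rests on the scaling and that of CDKN1B on 1 of its 4 probes. The size of the CCND1 difference depends on the scaling too. On the other CDKN1B probes BCL6KO array 1 lay in or beside the WT range. With median scaling CCND1 was still called and CCND3 was not. CCND3 and CDKN1B were the genes called in opposite directions against WT in the deficient groups, with those limits on the BCL6KO side. For both, the difference between DKO-labelled and BCL6KO arrays was itself called. Only CCND1, CCND2, CDK6 and CDKN2B were called in the same direction against WT in both. CDK6 was lower in both, and its level in BCL6KO was further from WT by a log2 difference of 3.19. As a description over 8 arrays in 3 groups, the members whose profiles lay closest were CCND1 and CCND2, with a root mean square distance of 0.50 log2 after each was centred on its WT mean. The next pair was CCND3 with CDKN1A, at 0.58, both being lowest in the DKO-labelled arrays. CCND3 and CDKN1B ran opposite to each other (Pearson's r of -0.997), as did CDK6 and CCNE1 (r of -0.970). These correlations follow from 3 group means and carry no test.

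Over all genes tested, 69.6%, 52.3% and 68.5% were called in BCL6KO against WT, DKO-labelled against WT and DKO-labelled against BCL6KO. Counts near these shares, in this list and those below, say little about the listed genes. Of 14 other genes of the G1 kinase machinery, 5 were matched and tested. In BCL6KO against WT 2 were higher, 2 lower and 1 not called (median log2 change 0.02). CCNE2, the gene of the other E-type cyclin, was lower by a log2 change of -1.77 ± 0.09 in BCL6KO (limma adjusted p = 4.89e-06), opposite to CCNE1, and by -2.20 ± 0.08 in the DKO-labelled arrays (limma adjusted p = 1.33e-06). CCNE2 averaged 0.78 ± 0.11 in DKO-labelled (SD, n = 3), 1.21 ± 0.04 in BCL6KO (SD, n = 2) and 2.98 ± 0.07 in WT (SD, n = 3). CCNA2, the gene of the S phase partner of CDK2, fell by 0.96 in BCL6KO against WT and was 0.68 higher in DKO-labelled than in BCL6KO arrays on the log2 scale. CDK7, of the kinase that activates other cyclin-dependent kinases, was 0.46 higher in BCL6KO than in WT. A rise this small may rest on the scaling, as the CCND3 difference did. In DKO-labelled against WT 1 was higher and 4 lower (median -0.28), among them CDC25A, which encodes a phosphatase that activates CDK2, with a log2 change of -1.07 ± 0.08 (limma adjusted p = 5.33e-05). In DKO-labelled against BCL6KO 1 was higher and 4 lower (median -0.49), with CDC25A at -1.10 and CDK7 at -0.67. CDKN2A, which in mammals encodes an INK4 inhibitor and the ARF protein, lies next to CDKN2B in the RefSeq annotation. Whether its probe reads an INK4 product in chicken was not examined. CDKN2A was higher where CDKN2B was lower, by 1.38 ± 0.11 in BCL6KO (limma adjusted p = 4.87e-05) and by 0.89 ± 0.10 in the DKO-labelled arrays (limma adjusted p = 0.000309), against WT.

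The genes of RB, on which the G1 kinases act, of E2F factors and of the MuvB and MYB proteins that work with them were read as a list. Of 18 listed genes 8 were tested, and in BCL6KO against WT 2 were higher, 5 lower and 1 not called (median -1.04). MYBL2, a transcription factor gene switched on by E2F, had a log2 change of -2.02 ± 0.11 (limma adjusted p = 7.66e-06), and LIN9, which encodes a subunit of the MuvB complex, -1.59 ± 0.10 (limma adjusted p = 1.5e-05). The genes called higher were E2F7, which encodes an E2F repressor (0.57 ± 0.14, limma adjusted p = 0.00955), and E2F5 (0.38 ± 0.08, limma adjusted p = 0.00561). Median scaling, which shifts all genes alike, took CCND1 from 0.63 to 0.33 and CCND3 from 0.62 to 0.32 in this comparison. The rises of E2F7 and E2F5 are smaller still, so they may rest on the scaling. In DKO-labelled against WT 1 was higher, 3 lower and 4 not called (median -0.21), with MYBL2 at -1.42, E2F1 at -0.71 and LIN52, another MuvB gene, at 0.50. RB1 averaged 1.07 ± 0.01 in DKO-labelled (SD, n = 3), -0.03 ± 0.57 in BCL6KO (SD, n = 2) and 1.03 ± 0.02 in WT (SD, n = 3). In DKO-labelled against BCL6KO 5 were higher and 2 lower (median 0.62), with LIN9 at 1.43 and RB1 at 1.09, and with E2F7 at -0.89 and E2F5 at -0.63.

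The genes of S phase that E2F factors control were lower in both deficient groups wherever they were called. Over all genes tested, 27.5% were called lower in BCL6KO and 23.7% in DKO-labelled against WT, and 28.8% higher in DKO-labelled against BCL6KO. Of 31 listed genes 19 were tested. In BCL6KO against WT 0 were called higher, 15 lower and 4 not called (median -1.40), led by SLBP, which encodes the histone mRNA binding protein (-2.74 ± 0.11, limma adjusted p = 1.84e-06), and MCM3, of the replicative helicase (-2.56 ± 0.19, limma adjusted p = 3.12e-05). In DKO-labelled against WT 0 were called higher, 9 lower and 10 not called (median -0.39). Here GINS1, another helicase subunit gene, had a log2 change of -1.36 ± 0.18 (limma adjusted p = 0.000779) and ORC1, of the origin recognition complex, -1.33 ± 0.10 (limma adjusted p = 4.36e-05). In DKO-labelled against BCL6KO 13 were higher, 0 lower and 6 not called (median 0.94), with MCM3 at 1.92 ± 0.19 and MCM6 at 1.76 ± 0.14 (limma adjusted p = 0.00013 and 5.29e-05). Among the G1 genes, the kinase genes CDK2 and CDK6 were lower in BCL6KO as these genes were, whereas CCNE1, itself known as an E2F target, was higher. CCNE2, the other E-type cyclin gene, was lower in BCL6KO (log2 change -1.77).

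**Figure D3:**
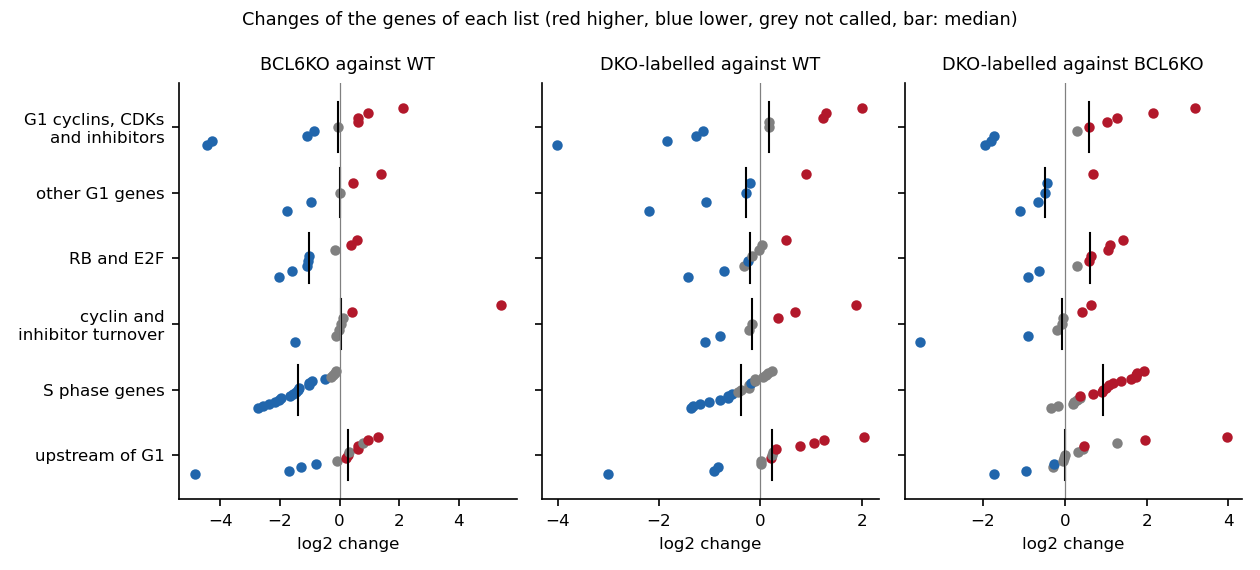
Log2 change of every tested gene of the 9 G1 genes and of the 5 pathway lists, by comparison, red where called higher, blue where called lower and grey otherwise, with a bar at the median. The 19 S phase genes lie mostly left of 0 in both comparisons with WT and mostly right of 0 in DKO-labelled against BCL6KO, while the 9 G1 genes spread to both sides. CDKN2B, EGR1 and SMAD3 are drawn at fitted values although a group was not well above background.

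Of 18 genes that act on the stability of G1 cyclins and inhibitors, 7 were tested. In BCL6KO against WT 2 were higher, 1 lower and 4 not called (median 0.05), in DKO-labelled against WT 3, 2 and 2 (median -0.17), and in DKO-labelled against BCL6KO 2, 2 and 3 (median -0.06). USP2, which encodes a ubiquitin protease known in human cells to stabilise cyclin D1, stood out by size. It averaged -0.62 ± 0.09 in DKO-labelled (SD, n = 3), 2.92 ± 0.27 in BCL6KO (SD, n = 2) and -2.52 ± 0.04 in WT (SD, n = 3). Its log2 change was 5.43 ± 0.12 in BCL6KO against WT (limma adjusted p = 1.87e-07), 1.89 ± 0.11 in DKO-labelled against WT (limma adjusted p = 1.32e-05) and -3.54 ± 0.12 in DKO-labelled against BCL6KO (limma adjusted p = 1.26e-06). DTL, which encodes the receptor of a ligase for the CDKN1A protein, was lower in BCL6KO (-1.50 ± 0.06) and in the DKO-labelled arrays (-1.09 ± 0.06) than in WT, and 0.42 higher in DKO-labelled than in BCL6KO arrays. SKP2, of the ligase that targets the CDKN1B protein, was higher than in WT by 0.42 ± 0.13 in BCL6KO (limma adjusted p = 0.0253). In the DKO-labelled arrays it was higher than in WT by 0.36 ± 0.12 (limma adjusted p = 0.0392). Rises this small may rest on the scaling, as the CCND3 difference between BCL6KO and WT did. SKP1, of the same ligase, was 0.69 higher in DKO-labelled than in WT arrays and 0.64 higher than in BCL6KO. USP28 was lower in the DKO-labelled arrays, by -0.80 against WT and -0.90 against BCL6KO.

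Of 24 genes known to act upstream of the G1 genes, 13 were tested. In BCL6KO against WT 6 were higher, 4 lower and 3 not called (median 0.28), in DKO-labelled against WT 6, 3 and 4 (median 0.23), and in DKO-labelled against BCL6KO 3, 3 and 7 (median -0.00056). FOXO1, a transcription factor gene of B cells whose mammalian product activates CDKN1B, averaged 1.14 ± 0.02 in DKO-labelled (SD, n = 3), -2.82 ± 0.26 in BCL6KO (SD, n = 2) and 2.05 ± 0.05 in WT (SD, n = 3). Its log2 change was -4.87 ± 0.11 in BCL6KO against WT (limma adjusted p = 2.03e-07), -0.91 ± 0.10 in DKO-labelled against WT (limma adjusted p = 0.000295) and 3.96 ± 0.11 in DKO-labelled against BCL6KO (limma adjusted p = 5.65e-07). In the DKO-labelled arrays FOXO1 was lower and CDKN1B higher than in WT. In BCL6KO both were called lower than in WT, CDKN1B by 1 of its 4 probes. A link between FOXO1 and CDKN1B was not tested. MYC, which drives G1 entry, was 0.96 ± 0.09 higher in BCL6KO than in WT (limma adjusted p = 8.24e-05) and 0.94 lower in DKO-labelled than in BCL6KO arrays (log2 change -0.94 ± 0.09), with 0.02 between DKO-labelled and WT arrays. CTNNB1, the gene of beta-catenin, was higher in both, by 1.30 ± 0.12 in BCL6KO and by 1.27 ± 0.11 in the DKO-labelled arrays (limma adjusted p = 9.14e-05 and 7.75e-05). TGFBR2, of the TGF-beta receptor that in mammals acts on CDKN2B, was lower in BCL6KO than in WT (-1.70 ± 0.17, limma adjusted p = 0.000123). It was 1.96 higher in DKO-labelled than in BCL6KO arrays. Between DKO-labelled and WT arrays the log2 change of TGFBR2 was 0.25 and was not called (limma adjusted p = 0.204). TGFBR1, of the same receptor, was called higher than in WT, by 0.61 in BCL6KO and by 1.06 in the DKO-labelled arrays. SMAD3, which carries that receptor's signal, was not well above background in the DKO-labelled arrays, at least 6.99-fold lower than in WT (limma adjusted p = 2.66e-06) and at least 2.88-fold lower than in BCL6KO (limma adjusted p = 5.33e-05). In BCL6KO, too, SMAD3 was lower than in WT (log2 change -1.28 ± 0.14, limma adjusted p = 0.000205). SMAD2, which carries the same signal, was called higher than in WT, by 0.61 in BCL6KO and by 0.32 in the DKO-labelled arrays. The rises of SMAD2, and that of TGFBR1 in BCL6KO, are small and may rest on the scaling. A link between these genes and CDKN2B was not tested. EGR1, an immediate early gene, was not well above background on the WT arrays and was at least 1.30-fold higher in the DKO-labelled arrays (limma adjusted p = 0.036).

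For each G1 gene detected in every group, the most similar genes were sought among 3726 named genes by the root mean square distance of log2 levels over the 8 arrays, each gene centred on its WT mean. CDK6 lay closest to PPL, at 0.12 log2, and to IRF5, at 0.26, where the median distance to all candidates was 2.39. PPL was lower than WT by log2 differences of -1.17 in DKO-labelled and -4.34 in BCL6KO arrays. CCND1 lay closest to ZNF277 (0.09) and SCFD1 (0.12), CCND2 to RASA3 (0.16) and NREP (0.17), and CCND3 to MAPT (0.12) and LBX2 (0.13). CCNE1 lay closest to PARK2 (0.10) and P4HB (0.12), and CDK2 to SPPL3 (0.06) and NHLRC2 (0.10). Among the inhibitors, CDKN1A lay closest to FHOD1 (0.11) and CXCR7 (0.12) and CDKN1B to RTN1 (0.24) and NCBP3 (0.25). CDKN2B could not be placed, since it was not detected in 2 of the 3 groups. With 3 groups on 8 arrays a small distance says that the group means coincide, and it carries no test.

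**Figure D4:**
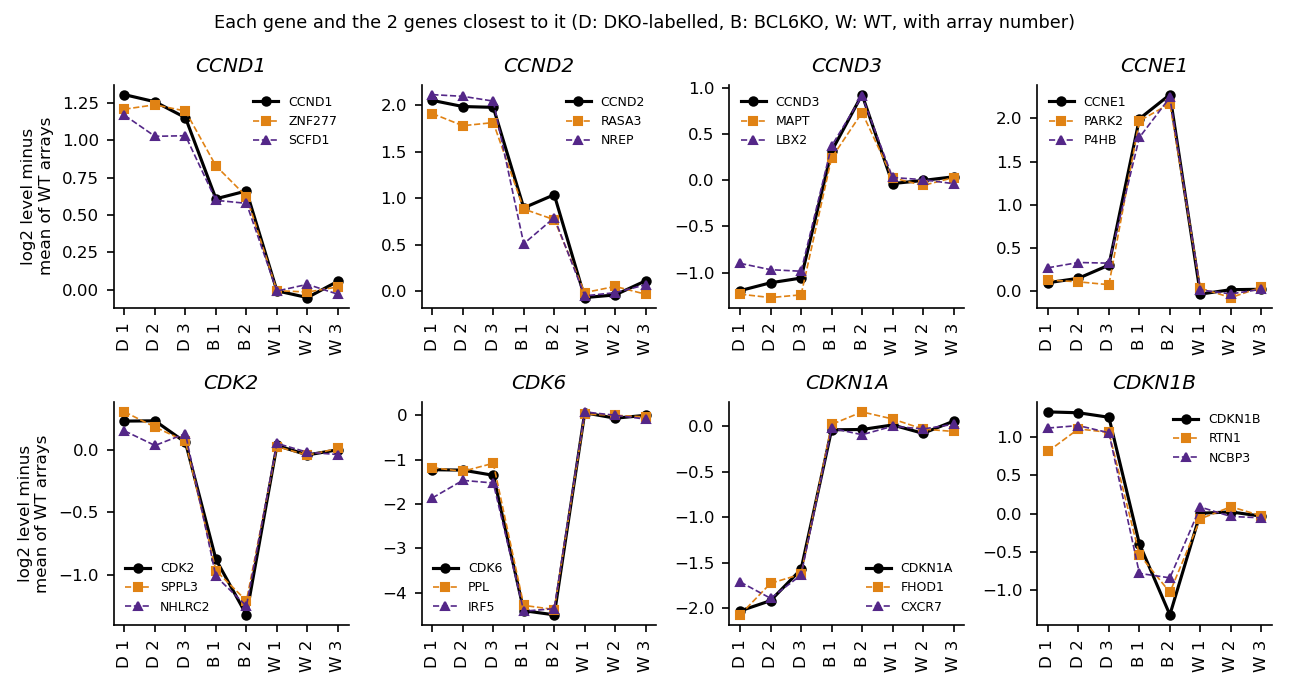
Log2 level minus the mean of the WT arrays, on each of the 8 arrays (D, DKO-labelled; B, BCL6KO; W, WT), for 8 of the G1 genes in black and the 2 genes closest to each in orange and purple. The match is closest for CDK2 with SPPL3, at a distance of 0.06, and loosest for CDK6 with IRF5, at 0.26, where DKO-labelled array 1 has -1.23 for CDK6 and -1.86 for IRF5.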

How the data were processed

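The 8 arrays are of an Agilent one-colour chicken design. Per the file headers, the processed signal is a linear intensity from which Agilent Feature Extraction had removed background and spatial trend on each array (10.7.1.1 for DKO and WT, 10.7.3.1 for BCL6KO), with no normalization between arrays. The spot and background medians are also intensity values, and the flags for well above background, saturated and outlying spots are 0 or 1, per the file headers. The value table deposited by the authors holds intensity on a linear scale, and the submitters' processing notes name limma and R 2.12.0 with no settings. Its median on the log2 scale is 7.83 in each DKO and BCL6KO column and 7.81 in each WT column, so the sets were normalized apart. Its order of steps is not known. The columns labelled DKO followed the WT scanner files best (r of 0.882 to 0.975), so it served as an alternative alone, within the set of DKO and BCL6KO. The labels give biotin as the label and Cy3 in the labelling protocol, and the extraction protocol speaks of WT and IRF4KO cultures only.

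From the deposited intensity, log2 of the processed signal minus the array's 75th percentile was computed, after control spots and outlier flags (31 to 139 spots an array) were left out. No spot was saturated (0 on each array). Accessions matched 10691 of 43603 probes to 4932 symbols of the RefSeq table, and 32912 probes had no symbol. Probes well above background on at least 2 arrays were kept (34229), and each of 24147 gene entries, 4305 with a symbol, was tested by the probe with the highest mean. A limma 3.58.1 model (R 4.3.3, with version 1.17.8 of data.table) with a mean per group was fitted, with 5 residual and 1.58 prior degrees of freedom, and tested on simulated data. Log2 differences within the BCL6KO pair had an SD of 0.651, and within pairs of DKO or of WT arrays 0.442 to 0.486, while all share an estimate of the spread. A gene not well above background in a group has a bound, written "at least", computed on group means of log2 levels.

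All 9 members, the label check genes, up to 2 called genes per direction, list and comparison with the largest change, and the 2 closest genes per member are named; CDKN2A is thus named also as a neighbour in the genome, chosen after its values were seen. TGFBR1 and SMAD2 are named besides, as the other TGF-beta signalling genes tested, also after their values were seen. The members, lists and tests were chosen with earlier results of these data known. Replicate numbers did not pair the arrays (correlations of deviations -0.06 to 0.05 between same-numbered arrays). Alternatives tried were 4 other scalings, 2 other background corrections, 2 other filters, 2 other probe rules, array weights, a minimum fold of 1.5, a replicate block, 2 slide blocks, leaving out each array, and the value table.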

Additional observations from a re-analysis of the deposited data

How the results depend on the processing

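Of the members' changes under each alternative, 499 were called with and without it and all 499 kept their sign, 22 lost the call (3 with the sign changed), 5 gained one (1 with the sign changed) and 86 were called in neither (8 with the sign changed). These counts include the authors' value table for DKO against BCL6KO, whose columns labelled DKO follow the WT scanner files. The sign changes of CCND1 and CCND2 come from that table, so they do not measure the effect of processing. Besides the called results given below, the sign changed for CDKN1A in BCL6KO against WT (to between 0.01 and 1.19 in 4 settings) and for CDKN2B in DKO against BCL6KO (to between -2.43 and -0.28 in 5 settings). Normexp background correction called 6751, 2798 and 5861 genes in BCL6KO against WT, DKO against WT and DKO against BCL6KO, in place of 16810, 12635 and 16534, and 5, 3 and 6 of the 9 members. It turned CDKN2B to 1.14 in BCL6KO against WT (limma adjusted p = 0.409) and left CDK6 uncalled in DKO against WT (-1.26, limma adjusted p = 0.387) and in DKO against BCL6KO (1.32, limma adjusted p = 0.184). It also left CCND1 and CCND3 uncalled in BCL6KO against WT (0.34 and 0.16), CCND3, CDKN1A and CDKN2B in DKO against WT (-1.11, -1.23 and -1.30), and CCND3 in DKO against BCL6KO (-1.27). With 18 aberrant background readings of BCL6KO array 1 replaced by the array's median, the same correction called 18802, 13614 and 17914 genes and 8, 7 and 9 members, with CDKN2B at -0.41 in DKO against BCL6KO (limma adjusted p = 0.0336), where both groups were not well above background, and at -0.89 and -1.30 in BCL6KO and DKO against WT (limma adjusted p = 0.000691 and 5.67e-05). A minimum fold of 1.5 left 8613, 5262 and 8119 genes and 5 members in BCL6KO against WT. The mean over its probes left CDKN1B uncalled in BCL6KO against WT (-0.51, limma adjusted p = 0.0756). In the authors' value table, which could be used for DKO against BCL6KO only, 2782 genes and 1 member were called, with CCND1 at -0.76 and CCND2 at -1.59; its columns labelled DKO follow the WT scanner files.

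Median scaling moved the share of called genes that were higher to 45.3% in BCL6KO against WT and 41.8% in DKO against WT, in place of 60.6% and 54.6%, and the medians over all genes to -0.05 and -0.08. The fit with the replicate block called 15370, 11349 and 14916 genes and 8, 7 and 8 members and changed no other call of a member; the numbers do not pair the arrays. With slide as a fixed block within the slides that held both groups, DKO against WT had 11176 genes and 7 members called; slide could not be fitted so for BCL6KO, and as a random block its correlation was -0.018. Leaving out each array gave 15352 to 17636, 10797 to 15326 and 15091 to 17458 genes called and 8, 7 and 8 to 9 members, the ninth being CDKN2B in DKO against BCL6KO without BCL6KO array 1 (0.90, limma adjusted p = 0.00501). Without either BCL6KO array, the remaining one is assumed to vary like the DKO and WT arrays. With 2 BCL6KO arrays on their own slides and scan session, their spread is poorly known, and signals near background, CDKN2B above all, depend on the background correction.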

Other observations

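The nearest named and tested neighbours of each G1 gene in the RefSeq annotation were read as a description, chosen by position after the data were seen. Those of CDK2, CDK6, CCND1 and CCND3 are given here. Of the genes next to CDK2, PMEL, the gene of a melanosome protein, was higher by a log2 change of 4.11 in DKO-labelled against WT arrays (limma adjusted p = 1.84e-06) and by 1.35 in BCL6KO against WT (limma adjusted p = 0.000462), while RAB5B on the other side had 0.09 and 0.50. CDK6 lay beside FAM133B, with log2 changes of -0.37 in DKO-labelled and -0.58 in BCL6KO against WT, and 3 genes from VPS50, with -0.42 and -0.25, against -1.27 and -4.46 for CDK6 itself. For CCND1, the neighbour ORAOV1 was 0.61 higher in DKO-labelled than in WT arrays (limma adjusted p = 0.000381) and 0.10 in BCL6KO (limma adjusted p = 0.306), where CCND1 had 1.24 and 0.63. INCENP, 3 genes from CCND1 on the other side, had -0.01 in DKO-labelled and -1.57 in BCL6KO arrays. TAF8, next to CCND3, was lower in both, by -0.88 in DKO-labelled and -0.48 in BCL6KO arrays, where CCND3 had -1.12 and 0.62, the BCL6KO value uncalled with median scaling (0.32, limma adjusted p = 0.115). MED20, 2 genes from CCND3 on the other side, had -0.07 in DKO-labelled and 0.40 in BCL6KO arrays.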
